A study of Mus musculus with 9 samples.

Results

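Ribosome biogenesis and nucleolar genes, with the transcription factor Myc and its relatives, were examined in the peripheral blood of mouse embryos that carried a modified Cbfb allele. The set was 40 genes named by their function and chosen with earlier results of these data known. A gene was measured by the brightest probe set (highest mean over the 9 arrays) that the array annotation assigns to it alone. Of the 40 genes, 38 had such a probe set, of 18193 genes in all. Mrto4, a factor of large ribosomal subunit assembly, has a probe set that is shared with its pseudogenes and was left out, and Npm3, a nucleolar chaperone, was not analysed here. No filter on low values was applied.

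Ribosomes are built in the nucleolus. RNA polymerase I transcribes the ribosomal RNA precursor, small nucleolar ribonucleoproteins (snoRNPs) guide its chemical modification, and separate sets of processing factors then shape the small and the large subunit. The transcription factor MYC binds DNA as a dimer with MAX and activates many of these genes, and in red cell precursors the making of ribosomes falls as the cells mature.

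The 9 arrays fell into 3 groups of 3. CbfbΔC95/ΔC95 (homozygous), Cbfb+/ΔC95 (heterozygous) and Cbfb+/+ (wild-type) embryos came from matings between heterozygotes, on a mixed C57BL6/129SvEv background, and were bled at E12.5. Each RNA was a pool of blood from 8 to 10 embryos of a genotype. Cbfb encodes the non-DNA-binding subunit of core binding factor, and the series concerns the C-terminal end of the leukaemia fusion protein CBFβ-SMMHC. The labels do not describe the ΔC95 allele further. Nor do they tell if each of the 3 arrays had a pool of its own, and p-values therefore measure only the spread between arrays, which may be technical. All values are deposited log2 values, a difference of 1 on this scale being a doubling of signal, and the number of arrays limits the precision.

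Cbfb itself was at 4.93, 5.13 and 5.25 in homozygous, 5.73, 5.80 and 5.79 in heterozygous, and 6.00, 6.04 and 5.98 in wild-type blood. The 3 genotypes did not overlap. The position of its probe set against the change in the allele was not analysed, and these values are no check of the labels. Embryonic globin transcripts, which define primitive red cells, were bright in every group, with Hba-x at a mean of 14.30 in wild-type blood. The mean of 7 measured erythroid markers was 12.80 to 12.83 in homozygous, 12.78 to 12.80 in heterozygous and 12.84 to 12.85 in wild-type arrays, near the top of the array range at 14.56. Of these 7, Alas2 fell in homozygous blood (-0.16, adjusted p = 0.0437) and Epor in heterozygous blood (-0.27, adjusted p = 0.0122). Other cell types differed between the groups. All 8 macrophage markers fell in homozygous blood (list mean 4.67 to 4.86 in homozygous, 7.30 to 7.32 in heterozygous and 7.65 to 7.68 in wild-type arrays). All 6 megakaryocyte markers fell too (5.52 to 5.65 in homozygous, 7.62 to 7.73 in heterozygous and 7.40 to 7.43 in wild-type arrays). Of 5 liver and visceral endoderm markers, 4 were higher in homozygous blood (6.38 to 6.45 in homozygous, 5.56 to 5.77 in heterozygous and 5.84 to 5.93 in wild-type arrays). Of 4 progenitor markers, 3 were lower in homozygous blood (4.06 to 4.29 in homozygous, 4.50 to 4.61 in heterozygous and 4.96 to 5.08 in wild-type arrays). Of 5 mesenchyme markers, 4 fell in homozygous blood and 2 rose in heterozygous blood (5.35 to 5.44 in homozygous, 6.26 to 6.34 in heterozygous and 5.92 to 5.99 in wild-type arrays), with Col3a1 at -0.94 and 0.93. Of 4 neural markers, Tubb3 and Nnat rose in both mutant genotypes (4.75 to 4.84 in homozygous, 4.95 to 5.08 in heterozygous and 4.36 to 4.45 in wild-type arrays). None of 4 endothelial markers passed the test in either, and 1 of 3 measured lymphoid markers rose in homozygous blood. The part of these shifts in the results below was not tested, and in bulk blood fewer cells of a type cannot be told apart from less RNA per cell. The array medians were 4.27 to 4.30 as deposited. The poly-A spike-ins, bacterial RNAs added before labelling, had a mean of 11.96 ± 0.02 in homozygous, 11.26 ± 0.00 in heterozygous and 10.38 ± 0.02 in wild-type arrays (SD, n = 3 each, 24 probe sets). If these means were set equal, every homozygous minus wild-type difference would be lower by 1.58 and every heterozygous minus wild-type difference by 0.88, and none of the 38 members would be above 0 in either comparison.

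The homozygous against wild-type comparison asks what 2 copies of the allele change. Most of the measured members were higher in homozygous blood, by less than 2-fold each. Of the 38 members, 23 rose (60.5%), against 10.7% of all genes, and 5 fell (13.2%), against 14.9% of all genes (called by limma at a Benjamini-Hochberg adjusted p under 0.05 over 45037 probe sets). The other 10 did not pass the test, and 6 of these had a difference above 0. Because the members were chosen with earlier results of these data known, these shares are a description and no independent test. The median difference was 0.31 on the log2 scale over the members and 0.05 over all genes, and the members spread between -0.55 and 0.97. The homozygous arrays lay above all wild-type arrays for 24 members (20.9% of all genes did so) and below them for 5 (18.3% of all genes did so). With arrays set to equal means of 8 housekeeping genes (reference gene scaling), which shifts the homozygous minus wild-type difference of all probe sets by -0.16, 15 members rose and their median was 0.16. The calls lost there were those of Myc, Polr1b, Nolc1, Gar1, Imp3, Rrp9, Rrp12 and Ppan. Shares over all genes were not counted with this scaling.

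**Figure D1:**
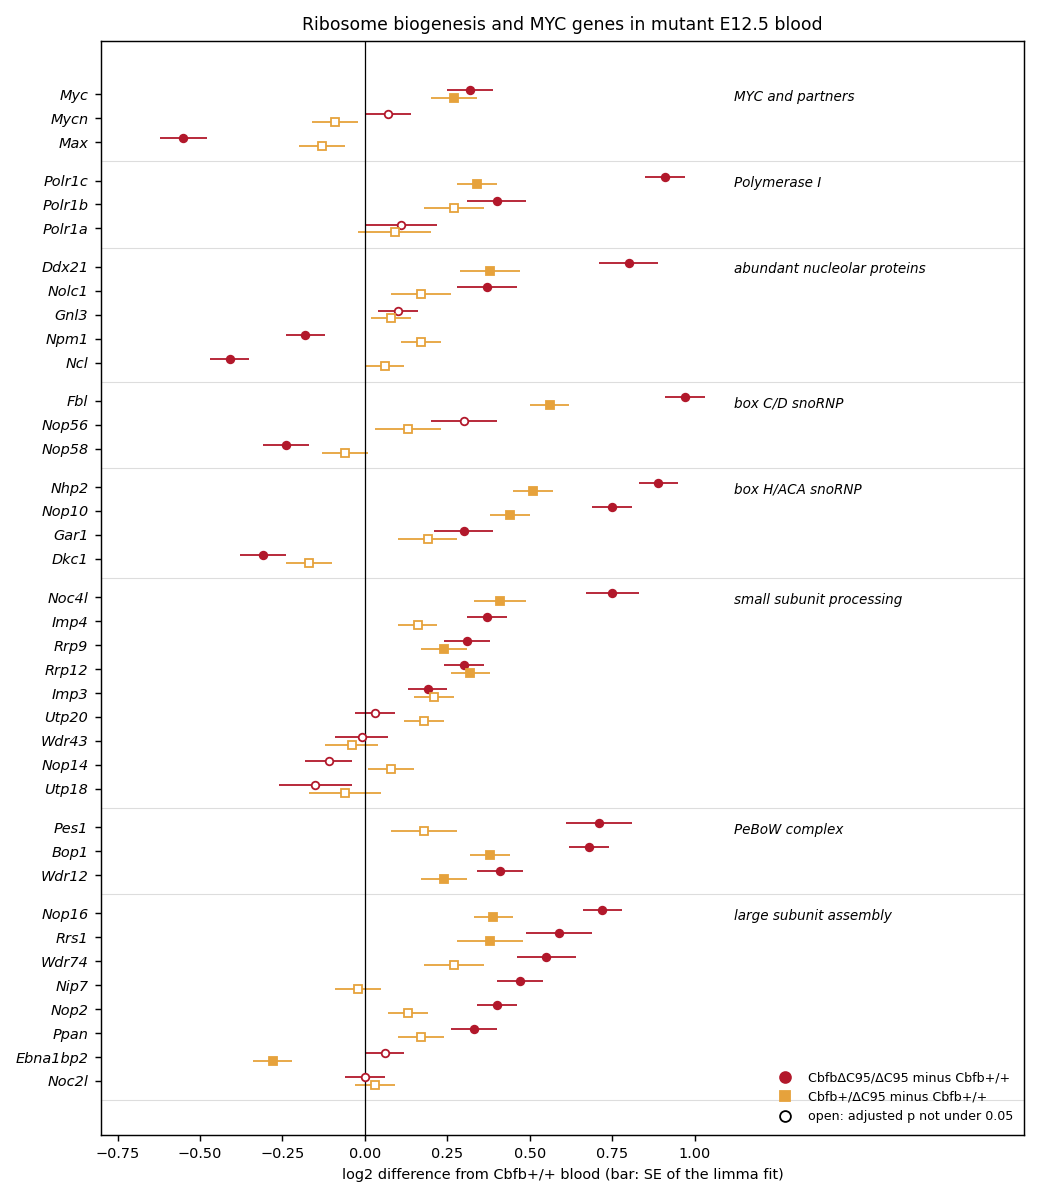
Log2 difference from wild-type blood (x axis) of the 38 measured genes (y axis, by role), for homozygous blood (red circles) and heterozygous blood (orange squares), with the SE of the limma fit as bars. Filled symbols passed the test at an adjusted p under 0.05. Most red symbols lie right of 0, up to 0.97 for Fbl, and those of Max, Ncl, Dkc1, Nop58 and Npm1 are filled and left of 0.

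Myc and its dimer partner Max moved in opposite directions. Myc was at 6.35, 6.25 and 6.24 in homozygous, 6.25, 6.28 and 6.16 in heterozygous, and 5.85, 5.95 and 6.07 in wild-type blood. All mutant arrays were above all wild-type arrays, and the mutant genotypes overlapped each other. The difference from wild type was 0.32 ± 0.07 in homozygous blood (SE, 1.25-fold, limma adjusted p = 0.00525). In heterozygous blood it was 0.27 ± 0.07 (SE, limma adjusted p = 0.0304), a call that ended without heterozygous replicate 1 or 2 or wild-type replicate 1 or 2 (adjusted p = 0.0969 to 0.129) and with the reference gene scaling.

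Max, the shared dimer partner of MYC and of its antagonists, was at 7.00, 6.87 and 6.73 in homozygous, 7.29, 7.29 and 7.29 in heterozygous, and 7.40, 7.41 and 7.44 in wild-type blood. The genotypes did not overlap, with the homozygous arrays the lowest. The homozygous difference was -0.55 ± 0.07 from wild type (SE, 1.46-fold lower, limma adjusted p = 8.31e-05), and the heterozygous difference of -0.13 did not pass (adjusted p = 0.377). Mycn, a MYC relative used mainly by embryonic progenitors, was at 6.77, 6.73 and 6.73 in homozygous, 6.60, 6.48 and 6.66 in heterozygous, and 6.83, 6.60 and 6.60 in wild-type blood, where the homozygous and wild-type arrays overlapped. Its homozygous difference of 0.07 did not pass (adjusted p = 0.579). A dimmer probe set of Mycn gave -0.19, which passed (adjusted p = 0.0351), and a further one gave 0.14, which did not (adjusted p = 0.229). The one that passed had means of 3.21 in homozygous, 3.63 in heterozygous and 3.40 in wild-type blood, below the array medians of 4.27 to 4.30. It was higher in heterozygous than in wild-type blood (0.23, adjusted p = 0.0267). The sign of the Mycn difference thus depended on the probe set, and no direction is given for the gene.

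MYC-MAX dimers bind the palindrome CACGTG, and the RefSeq promoter windows of the GRCm38.p6 assembly (250 bases before to 50 after the transcription start) were searched for it. A gene with several windows counted once, if any held the motif. A window was given for 32 of the measured members. It was not given for Myc, Npm1, Fbl, Rrp12, Bop1 and Rrs1. The motif was present in 7 of the 32 (21.9%), against 10.2% of 14452 measured genes with a window. Its holders were Imp4, Nop2 and Pes1, which rose in homozygous blood, Max, which fell, and Utp18, Utp20 and Wdr43, which did not pass the test. The variant CACGCG (or CGCGTG on the other strand) was in 10 of the 32 (31.2%, against 16.2% of measured genes) and CATGTG (or CACATG) in 8 (25.0%, against 12.0%), and a promoter could count under more than 1 motif. A match is a run of letters and not a binding site. The 4 promoters with CACGTG whose genes passed the test in homozygous blood are shown, each from 150 bases before the start through the first 30 transcribed bases, 5′ to 3′ on the gene's strand, with the motif in capitals.
Imp4, chr1:34439679-34439858, plus strand: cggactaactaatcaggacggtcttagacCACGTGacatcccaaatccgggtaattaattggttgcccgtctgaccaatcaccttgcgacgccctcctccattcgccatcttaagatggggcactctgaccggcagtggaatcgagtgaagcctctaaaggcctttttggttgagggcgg
Nop2, chr6:125131733-125131912, plus strand: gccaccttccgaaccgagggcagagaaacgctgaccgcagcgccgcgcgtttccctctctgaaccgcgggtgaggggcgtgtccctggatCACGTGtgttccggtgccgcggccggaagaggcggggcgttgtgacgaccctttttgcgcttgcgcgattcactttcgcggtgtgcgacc
Pes1, chr11:3963825-3964004, plus strand: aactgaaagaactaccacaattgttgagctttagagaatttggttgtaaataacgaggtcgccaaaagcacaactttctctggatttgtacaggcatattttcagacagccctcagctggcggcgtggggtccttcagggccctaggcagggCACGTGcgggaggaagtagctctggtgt
Max, chr12:76962219-76962398, minus strand: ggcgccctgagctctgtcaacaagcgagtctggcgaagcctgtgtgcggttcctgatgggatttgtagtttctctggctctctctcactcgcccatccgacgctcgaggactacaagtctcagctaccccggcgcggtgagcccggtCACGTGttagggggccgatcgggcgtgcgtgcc
Counted from the start base as 0, the motif began at -121 in Imp4, -60 in Nop2, 2 in Pes1 and -3 in Max. The start is the one its window was built on. For Max it lies inside the annotated gene, which extends farther upstream to base 76962323 of chromosome 12.

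RNA polymerase I subunits differed in how far they moved. Polr1c, a subunit shared with RNA polymerase III, was at 8.91, 8.78 and 8.86 in homozygous, 8.29, 8.29 and 8.26 in heterozygous, and 7.91, 7.93 and 7.98 in wild-type blood. The genotypes stood apart in that order, without overlap. Homozygous blood was 0.91 ± 0.06 above wild type (SE, 1.88-fold, limma adjusted p = 3.36e-07) and 0.57 ± 0.06 above heterozygous blood (SE, adjusted p = 3.53e-05). Polr1b, the second-largest subunit of the enzyme, rose by 0.40 (adjusted p = 0.00911), with arrays at 5.37, 5.74 and 5.36 in homozygous, 5.42, 5.38 and 5.28 in heterozygous, and 5.03, 5.10 and 5.15 in wild-type blood. Homozygous replicate 2 was its high array. Polr1a, the largest subunit, was at 0.11 and did not pass (adjusted p = 0.526), with overlapping arrays.

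Among the abundant nucleolar proteins, members rose and fell. Ddx21, an RNA helicase of ribosomal RNA processing, was at 7.51, 7.27 and 7.26 in homozygous, 6.88, 6.88 and 7.00 in heterozygous, and 6.59, 6.65 and 6.39 in wild-type blood. The 3 genotypes did not overlap, and the homozygous difference from wild type was 0.80 ± 0.09 (SE, 1.75-fold, limma adjusted p = 2.57e-05). Nolc1, a scaffold that links snoRNPs to polymerase I, rose by 0.37 in homozygous blood (adjusted p = 0.00925), and the nucleolar GTPase Gnl3 was at 0.10 (adjusted p = 0.32).

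Ncl, which encodes nucleolin, a major RNA-binding protein of the nucleolus, went the other way. It was at 8.20, 8.10 and 8.09 in homozygous, 8.58, 8.62 and 8.59 in heterozygous, and 8.53, 8.55 and 8.55 in wild-type blood. The homozygous arrays were the lowest and the heterozygous arrays lay just above the wild-type ones. Homozygous blood was -0.41 ± 0.06 from wild type (SE, 1.33-fold lower, limma adjusted p = 0.000161). Npm1, the nucleolar chaperone mutated in some myeloid leukaemias, was at 8.46, 8.43 and 8.46 in homozygous, 8.81, 8.84 and 8.75 in heterozygous, and 8.58, 8.63 and 8.67 in wild-type blood. Here the heterozygous arrays were the highest and the homozygous arrays the lowest, without overlap. Homozygous blood was -0.18 ± 0.06 from wild type (SE, limma adjusted p = 0.0368), a call that ended without homozygous replicate 2 or 3, heterozygous replicate 1 or wild-type replicate 2 or 3. Against heterozygous blood the homozygous difference was -0.35 (adjusted p = 0.00108). These values are from the brightest probe set. By the other probe set of Npm1 the heterozygous arrays, at 8.23, 8.30 and 8.17, overlapped the wild-type ones, at 8.22, 8.19 and 8.17. The homozygous arrays were the lowest there too, at 7.98, 8.02 and 8.03.

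The core proteins of the box C/D snoRNP, which guides methylation of ribosomal RNA, did not move together. Fbl encodes fibrillarin, the methyltransferase of the particle, and had the highest difference of all members. It was at 9.15, 9.07 and 9.11 in homozygous, 8.70, 8.70 and 8.68 in heterozygous, and 8.11, 8.21 and 8.11 in wild-type blood, with no overlap. The homozygous difference from wild type was 0.97 ± 0.06 (SE, 1.96-fold, limma adjusted p = 1.88e-07) and the heterozygous difference 0.56 ± 0.06 (SE, 1.47-fold, adjusted p = 0.000114). The scaffold proteins of the same particle differed from it. Nop58 fell by 0.24 on the log2 scale in homozygous blood (adjusted p = 0.0383), and this call was lost in 8 of 9 fits that each left out 1 array, all but the one without homozygous replicate 2. Nop56 was at 7.72, 7.29 and 7.31 in homozygous, 7.27, 7.26 and 7.28 in heterozygous, and 7.18, 7.10 and 7.15 in wild-type blood, a homozygous minus wild-type difference of 0.30 that did not pass (adjusted p = 0.0511). Homozygous replicate 1 was the high array, and without it the difference was 0.16, whereas without homozygous replicate 2 or 3 the call passed (adjusted p = 0.0243 and 0.0387).

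All 4 proteins of the box H/ACA snoRNP, which guides pseudouridylation and also belongs to telomerase, passed the test, 3 upward and 1 downward. Of all genes, 10.7% passed upward and 14.9% downward. Nhp2 was at 9.54, 9.41 and 9.42 in homozygous, 9.07, 9.10 and 9.06 in heterozygous, and 8.62, 8.58 and 8.48 in wild-type blood. Nop10, the smallest protein of the particle, was at 10.44, 10.37 and 10.32 in homozygous, 10.04, 10.06 and 10.08 in heterozygous, and 9.62, 9.64 and 9.61 in wild-type blood. In both genes the 3 genotypes stood apart, the homozygous arrays highest and the wild-type arrays lowest. The homozygous difference from wild type was 0.89 ± 0.06 for Nhp2 (SE, 1.86-fold, limma adjusted p = 6.33e-07) and 0.75 ± 0.06 for Nop10 (SE, 1.69-fold, limma adjusted p = 1.16e-06). Gar1 rose by 0.30 (adjusted p = 0.033), a call that ended without homozygous replicate 2 or 3 or wild-type replicate 1 or 2. Dkc1, the pseudouridine synthase of the particle, was at 7.54, 7.58 and 7.56 in homozygous, 7.70, 7.82 and 7.59 in heterozygous, and 7.82, 7.92 and 7.88 in wild-type blood. The homozygous arrays were below all others, and Dkc1 fell by 0.31 on the log2 scale (adjusted p = 0.00509).

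Of the 9 measured factors of small subunit processing, 5 rose in homozygous blood and none fell, with a median difference of 0.19. Over all genes 10.7% rose, 14.9% fell and the median was 0.05. Noc4l, in yeast a partner of Nop14 in small subunit assembly, was at 7.93, 7.60 and 7.71 in homozygous, 7.39, 7.41 and 7.41 in heterozygous, and 6.99, 7.06 and 6.93 in wild-type blood. The genotypes did not overlap, and the homozygous difference was 0.75 ± 0.08 (SE, 1.69-fold, limma adjusted p = 1.89e-05). The others that rose were Imp4 and Imp3, partners in the U3 snoRNP, at 0.37 and 0.19, Rrp9, another U3 protein, at 0.31, and Rrp12, in yeast a factor of subunit export, at 0.30. The Imp3 call (adjusted p = 0.0349) ended without homozygous replicate 1 or 2 or any wild-type array. The members that did not pass were Nop14 at -0.11 and 3 components of the large U3-containing processome, Utp20 at 0.03, Wdr43 at -0.01 and Utp18 at -0.15.

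Genes of the PeBoW complex, which processes the large subunit RNA and holds Pes1, Bop1 and Wdr12, rose in all 3 cases. In homozygous blood 10.7% of all genes did so. Bop1 was at 7.67, 7.57 and 7.55 in homozygous, 7.30, 7.29 and 7.29 in heterozygous, and 6.92, 6.92 and 6.91 in wild-type blood. Pes1 was at 6.18, 5.74 and 6.11 in homozygous, 5.44, 5.55 and 5.45 in heterozygous, and 5.27, 5.38 and 5.25 in wild-type blood. Neither gene had overlapping genotypes, and homozygous replicate 2 was the low array of its group for Pes1. The homozygous difference from wild type was 0.68 ± 0.06 for Bop1 (SE, 1.61-fold, limma adjusted p = 2.47e-06), 0.71 ± 0.10 for Pes1 (SE, 1.64-fold, limma adjusted p = 0.000218) and 0.41 ± 0.07 for Wdr12 (SE, limma adjusted p = 0.000644).

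Of 8 measured factors of large subunit assembly outside PeBoW, 6 rose in homozygous blood and none fell, with a median of 0.44. The shares over all genes were 10.7% higher and 14.9% lower, with a median of 0.05. Nop16 was at 6.90, 6.74 and 6.76 in homozygous, 6.46, 6.46 and 6.46 in heterozygous, and 6.06, 6.11 and 6.06 in wild-type blood, in 3 separate bands. Its homozygous difference was 0.72 ± 0.06 (SE, 1.65-fold, limma adjusted p = 2.77e-06). Rrs1, which in yeast helps to bring the 5S ribonucleoprotein into the large subunit, was at 6.97, 6.91 and 6.93 in homozygous, 6.81, 6.86 and 6.51 in heterozygous, and 6.16, 6.49 and 6.39 in wild-type blood. Heterozygous replicate 3 was close to the highest wild-type array, and homozygous blood was 0.59 ± 0.10 above wild type (SE, limma adjusted p = 0.00104). Wdr74 rose by 0.55, Nip7 by 0.47, the RNA methyltransferase Nop2 by 0.40 and Ppan by 0.33. Ebna1bp2 was at 0.06 and Noc2l at -0.00 by its brightest probe set, and neither passed.

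**Figure D2:**
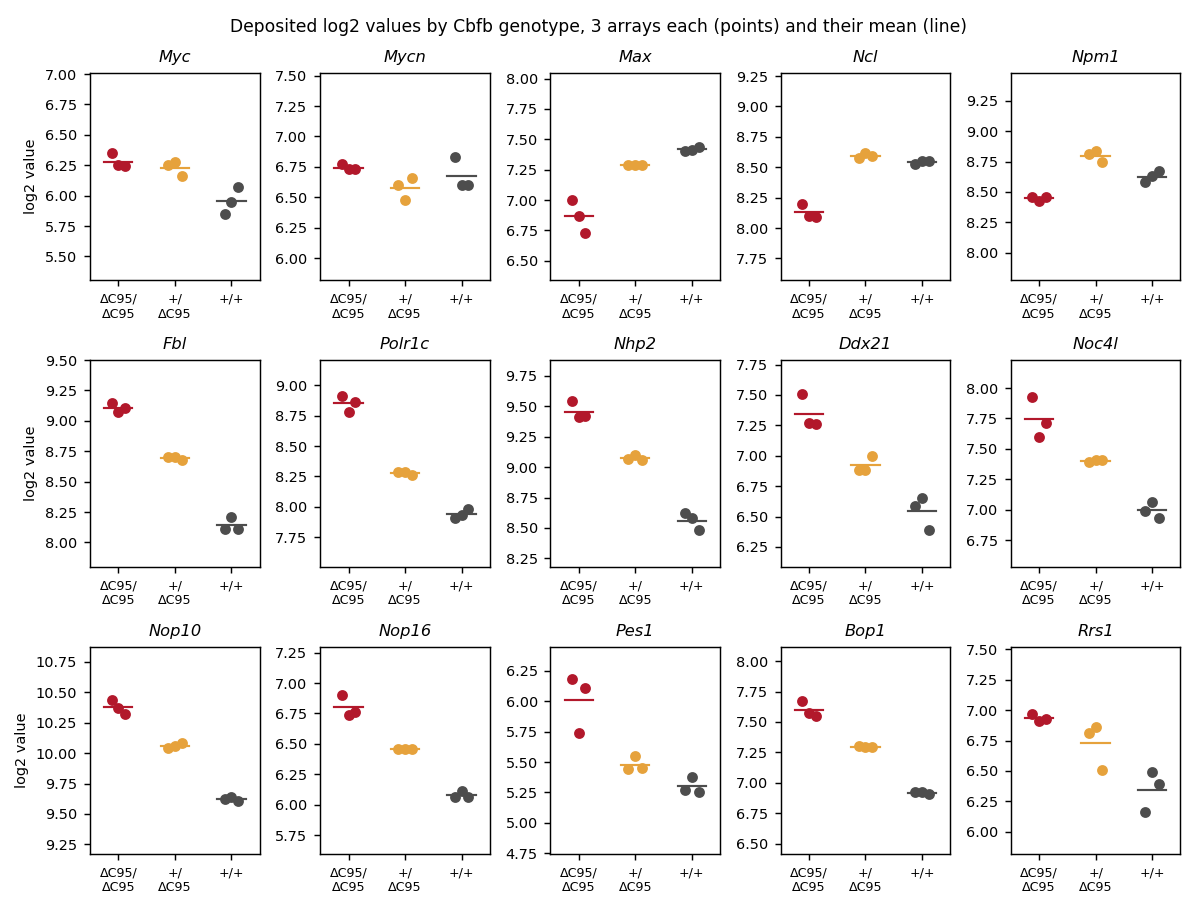
Deposited log2 values (y axis, each panel 1.7 units high) of Myc, Mycn, Max, Ncl, Npm1 and the 10 members with the largest called difference, by genotype (x axis: homozygous, heterozygous, wild type). Points are arrays and lines are means of 3. Fbl, Polr1c, Nhp2, Nop10, Nop16 and Bop1 form 3 separate steps, and Ncl is low in homozygous arrays only among the 3 genotypes shown.

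The heterozygous against wild-type comparison asks what 1 copy changes. It shares its wild-type arrays with the comparison above. In heterozygous blood 13 of 38 members rose (34.2%), against 4.79% of all genes, and 1 fell (2.63%), against 7.04% of all genes. The median difference was 0.17 over the members and 0.01 over all genes, with a range of -0.28 to 0.56. The heterozygous arrays lay above all wild-type arrays for 25 members (14.2% of all genes did so) and below them for 3 (15.7% of all genes did so). The 13 were Fbl at 0.56, Nhp2 at 0.51, Nop10 at 0.44, Noc4l at 0.41, Nop16 at 0.39, Bop1, Ddx21 and Rrs1 at 0.38, Polr1c at 0.34, Rrp12 at 0.32, Myc at 0.27 and Rrp9 and Wdr12 at 0.24. Some of these calls did not hold when 1 array was left out. Those of Rrs1 and Wdr12 ended in 7 and 6 of the 9 fits without 1 array, that of Rrp9 in 5 (without any heterozygous array or wild-type replicate 1 or 3), and that of Ddx21 without heterozygous replicate 3 or wild-type replicate 3. With reference gene scaling 7 members rose, 3 fell and the median was 0.05. That scaling shifts the heterozygous minus wild-type difference of all probe sets by -0.12, and shares over all genes were not counted with it.

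Ebna1bp2, a factor of large subunit assembly, was the member that fell in heterozygous blood. It was at 7.76, 7.61 and 7.55 in homozygous, 7.29, 7.32 and 7.25 in heterozygous, and 7.62, 7.55 and 7.55 in wild-type blood. The heterozygous arrays were the lowest and did not overlap with either other genotype. They differed from wild type by -0.28 ± 0.06 (SE, limma adjusted p = 0.016), a call that ended without heterozygous replicate 1 or 3 or wild-type replicate 1 (adjusted p = 0.0514 to 0.0692).

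Homozygous blood was then set against heterozygous blood, which asks what the second copy adds. Here 12 members rose (31.6%), against 5.38% of all genes, and 3 fell (7.89%), against 10.4% of all genes, with a median of 0.16 against 0.03 over all genes. The homozygous arrays lay above all heterozygous arrays for 19 members (15.7% of all genes did so) and below them for 6 (15.4% of all genes did so). This comparison shares its heterozygous arrays with the one against wild type and its homozygous arrays with the first. Polr1c was at 0.57 in homozygous minus heterozygous blood, beside 0.34 in heterozygous minus wild-type blood. Ddx21 was at 0.43 beside 0.38, Fbl at 0.41 beside 0.56, Nhp2 at 0.38 beside 0.51, Noc4l at 0.34 beside 0.41, Nop16 at 0.34 beside 0.39, Nop10 at 0.32 beside 0.44 and Bop1 at 0.30 beside 0.38, all on the same scale and in the same order, and each of these values passed. The other probe set of Ddx21 passed in the opposite direction in homozygous minus heterozygous blood, at -0.27 (adjusted p = 0.0466). Pes1 was at 0.53 beside 0.18, Nip7 at 0.49 beside -0.02 and Nop2 at 0.27 beside 0.13, where the second value did not pass. The Nop2 call against heterozygous blood ended without heterozygous replicate 1 (adjusted p = 0.0571). Ebna1bp2 was the twelfth, at 0.35, and the 3 that fell were Ncl at -0.47, Max at -0.42 and Npm1 at -0.35. Nip7, which acts in large subunit maturation, was at 7.95, 7.74 and 7.69 in homozygous, 7.36, 7.28 and 7.26 in heterozygous, and 7.27, 7.32 and 7.37 in wild-type blood, where only the homozygous arrays stood apart.

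The heterozygous mean lay between the other genotypes for 27 of the 38 members (71.1%) and for 49.7% of all genes. It did so for 23 of the 28 members called in homozygous against wild-type blood (82.1%). These shares depend on how far apart the other genotypes are, and the share among all called genes was not counted. The distance of the heterozygous mean from the midpoint of the other genotypes was tested in the same fit. The heterozygous mean was above the midpoint for Ncl and Npm1, each by 0.26 ± 0.05 (SE, limma adjusted p = 0.00953 and 0.00927), against 3.64% of all genes called above it. It was below the midpoint for Ebna1bp2, by -0.32 ± 0.06 (SE, limma adjusted p = 0.0075), and for Nip7, by -0.26 ± 0.06 (SE, limma adjusted p = 0.0486), against 1.53% of all genes called below it. The Nip7 call ended in 7 of the 9 fits without 1 array, the Npm1 call without heterozygous replicate 1 or 2, and the Ncl call without heterozygous replicate 2, where it had an adjusted p of 0.0618. By the other probe set of Npm1 the distance was 0.13 and did not pass (adjusted p = 0.207). For the other 34 members the test did not pass, which does not show that heterozygous blood was at the midpoint.

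A second reading of the same genes came from 38 further probe sets, which 24 of the members had. For the genes that rose in homozygous blood there were 19 such probe sets, of which 8 rose, none fell and 17 had a difference above 0. Over all probe sets 8.34% rose and 11.7% fell. Fbl gave 1.08 by its other probe set, Nhp2 0.87, Nop10 0.69 and Polr1c 0.61. The 3 other probe sets of Noc4l gave 0.88, 0.86 and 0.71. Others gave smaller or opposite differences. The other probe set of Ddx21 gave -0.18 in homozygous minus wild-type blood (adjusted p = 0.153), that of Bop1 0.03 (adjusted p = 0.819) and that of Pes1 0.07 (adjusted p = 0.583). Those of Bop1 and Pes1 were dim, with wild-type means of 4.10 and 3.30, below the array medians of 4.27 to 4.30. By the brightest probe sets these means were 6.91 and 5.30. If such dim probe sets can show a change was not tested. For the genes that fell there were 7, of which 2 fell, Ncl at -0.37 and Npm1 at -0.18, and none rose. The other probe sets of Dkc1 gave 0.02 and -0.16, and neither passed. With all probe sets of a gene averaged, the homozygous against wild-type calls of Dkc1 and Imp4 were lost. For the genes that did not pass there were 12, of which 2 rose and 2 fell. Those that rose belonged to Nop56, at 0.26 (adjusted p = 0.0189), and Noc2l, and those that fell to Wdr43, at -0.27 (adjusted p = 0.0297), and Mycn.

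Noc2l, a nucleolar protein that also binds p53 and histones, changed its reading with the probe set. By the brightest it was at 7.24, 7.38 and 7.40 in homozygous, 7.42, 7.36 and 7.34 in heterozygous, and 7.38, 7.30 and 7.34 in wild-type blood, with overlap. Its other probe set had means of 7.31 in homozygous, 6.79 in heterozygous and 6.26 in wild-type blood, a homozygous difference from wild type of 1.05 (adjusted p = 1.41e-07). Which transcript forms the probe sets read was not analysed here. The brightest probe sets of Polr1c, Fbl, Nhp2 and Gar1 end in _s_at and that of Rrs1 in _x_at, endings that mark possible matches to more than 1 transcript. Without such probe sets the heterozygous against wild-type calls of Polr1c and Rrs1 were lost.

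**Figure D3:**
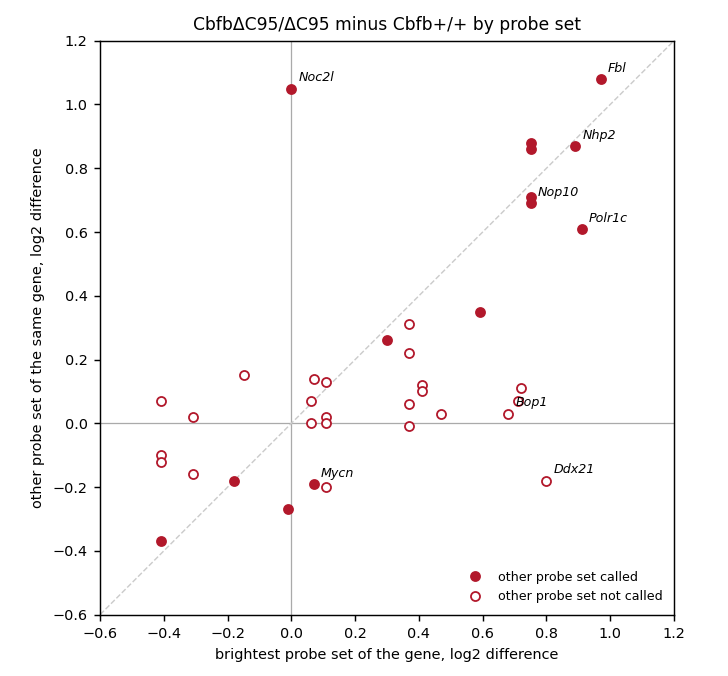
Homozygous minus wild-type log2 difference of the brightest probe set of a gene (x axis) and of each other probe set of that gene (y axis), 38 points from 24 genes. The dashed line marks equal values and filled points passed the test. Fbl, Nhp2 and Nop10 lie near the line, Noc2l lies at 1.05 against -0.00, and a row of open points near 0 holds other probe sets of genes that rose, such as Bop1. The other probe set of Bop1 is dim, with a wild-type mean of 4.10.

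The wider pathway was read from 8 lists of other ribosome biogenesis genes, MYC network factors and reported MYC targets outside the nucleolus, 141 genes measured in the same way. In homozygous against wild-type blood 44 of them rose (31.2%) and 20 fell (14.2%), beside the 10.7% and 14.9% of all genes given above, with a median of 0.09. In heterozygous against wild-type blood 27 rose (19.1%), against 4.79% of all genes, and 10 fell (7.09%), close to the 7.04% of all genes. The 19 reported MYC targets outside the nucleolus held 12 of the 44 homozygous and 11 of the 27 heterozygous rises. In homozygous against heterozygous blood 30 rose (21.3%), against 5.38% of all genes, and 15 fell (10.6%), close to the 10.4% of all genes. The lists differed in their counts. Of 36 other small subunit factors, 7 rose (19.4%) and 3 fell (8.33%) in homozygous blood. Their median was 0.06, beside 0.05 over all genes. In heterozygous blood 2 of them rose (5.56%), near the 4.79% of all genes. The homozygous rises were led by Bysl at 0.78, Emg1 at 0.76 and Wdr46 and Tbl3 at 0.72. Of 36 other large subunit factors, 10 rose (27.8%) and 5 fell (13.9%) in homozygous blood, with a median of 0.08. In heterozygous blood 6 of them rose (16.7%). The homozygous rises were led by the helicase Ddx54 at 0.89, Rrp1 at 0.82, the anti-association factor Eif6 at 0.63 and the helicase Ddx56 at 0.59. Of 13 other polymerase I subunits and ribosomal DNA transcription factors, 4 rose (30.8%) and 1 fell (7.69%) in homozygous blood. Their median was 0.05, and in heterozygous blood 1 of them rose (7.69%). In homozygous blood Taf1c was at 0.48, Polr1e at 0.41, the initiation factor Rrn3 at 0.36 and Taf1d at -0.31.

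Of 9 other snoRNP assembly factors, 4 rose (44.4%, against 10.7% of all genes) and 2 fell (22.2%, against 14.9% of all genes) in homozygous blood. Their median was 0.22. Pih1d1 was at 0.53, the ATPase Ruvbl1 at 0.48, Znhit3 at 0.42 and Rpap3 at -0.43. Of 14 genes of the nuclear exosome, which trims ribosomal RNA precursors, 5 rose (35.7%) and 3 fell (21.4%), with a median of 0.08 for the exosome. Its core subunits Exosc4, Exosc7 and Exosc1 were at 0.78, 0.70 and 0.46, and its cofactor C1d was at -0.62. Of 4 genes of the 5S ribonucleoprotein and the nucleolar stress response, Mdm2, the ubiquitin ligase of p53, fell by 0.78 on the log2 scale (adjusted p = 8.13e-05), and Cdkn1a, a p53 target and cell cycle inhibitor, rose by 0.42 (adjusted p = 0.00335).

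Genes reported as MYC targets outside the nucleolus rose in 12 of 19 cases in homozygous blood (63.2%, against 10.7% of all genes) and in 11 of 19 in heterozygous blood (57.9%, against 4.79% of all genes). This list, too, was chosen with earlier results of these data known, and its shares are a description. The spermidine synthase gene Srm was at 8.57, 8.55 and 8.48 in homozygous, 8.22, 8.17 and 8.03 in heterozygous, and 7.43, 7.44 and 7.40 in wild-type blood. The 3 genotypes did not overlap, and the difference from wild type was 1.11 ± 0.06 in homozygous blood (SE, limma adjusted p = 1.62e-07) and 0.71 in heterozygous blood (adjusted p = 4.62e-05). The serine hydroxymethyltransferase Shmt2 was at 1.06, the arginine methyltransferase Prmt1 at 0.92 and the chaperonin Hspe1 at 0.90 in homozygous minus wild-type blood. Odc1, the ornithine decarboxylase, and Hspd1, the partner of Hspe1, fell by 0.24 and by 0.46 on the log2 scale. Of 10 other factors of the MYC network, 3 fell, 1 rose and 6 did not pass the test in homozygous against wild-type blood. Their median difference was 0.06, and of all genes 14.9% fell and 10.7% rose. Those that fell were the MAX-binding antagonists of MYC Mxd1, Mxi1 and Mxd4. They were at -0.73, -0.71 and -0.43 (adjusted p = 5.27e-06, 1.21e-05 and 0.0014). Another antagonist, Mnt, rose by 0.26 (adjusted p = 0.0187). In heterozygous blood Mxd1 and Mxi1 were at -0.46 and -0.34, and both fell (adjusted p = 0.000977 and 0.00947). Mnt rose there by 0.32 (adjusted p = 0.0109), and 7 of the 10 did not pass.

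**Figure D4:**
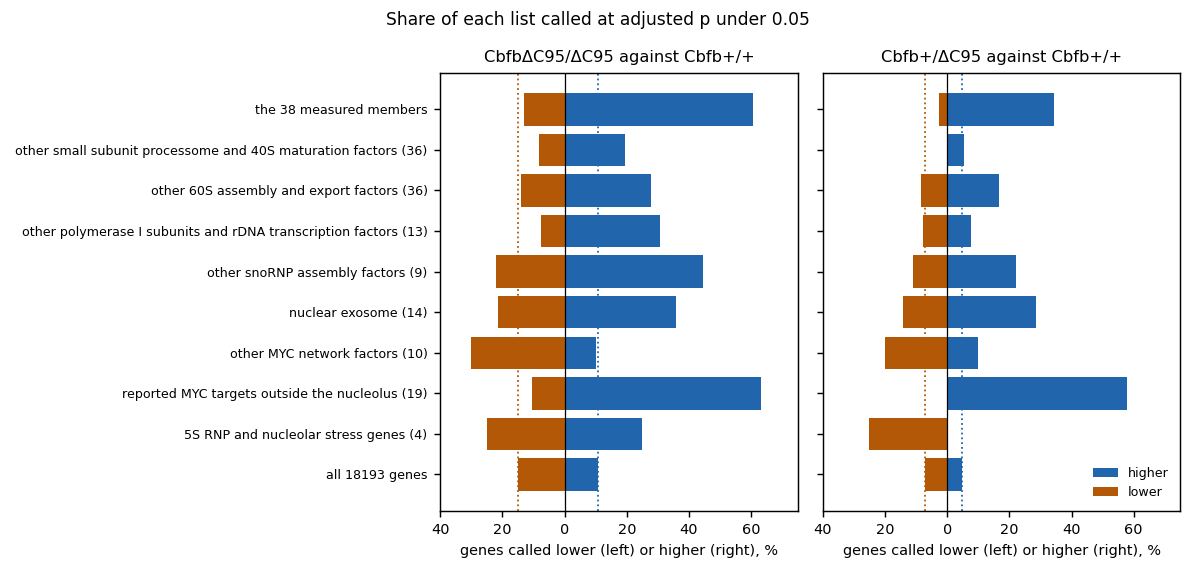
Share of each gene list (y axis, number measured in brackets) that passed the test at an adjusted p under 0.05, lower to the left and higher to the right of 0 (x axis, percent), in homozygous (left panel) and heterozygous (right panel) against wild-type blood. Dotted lines mark the shares over all 18193 genes, 10.7% higher and 14.9% lower in the left panel. The 38 members, at 60.5%, and the reported MYC targets, at 63.2%, have the longest bars to the right in the left panel.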

How the data were processed

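Pooled blood RNA was hybridized to 9 Affymetrix whole-genome mouse arrays, 3 per genotype. Per the submitters' processing notes, the authors used RMA, Affymetrix Expression Console 1.0 and Partek 6.5, with no role given to each. No label names the scale of the deposited values (1.49 to 14.56). The deposited values were read as log2, which is what RMA, named in those notes as run by the authors, returns and what the range allows. Without detection calls the signal over background is unknown. Control probe sets (64 of 45101) were left out. GEO's platform annotation names 1 gene for 34945 of the rest, several for 932 and none for 9160. Symbols were checked by Entrez identifier against RefSeq (GRCm38.p6), with 34741 matched and none changed. A linear model of genotype over all 9 arrays was fitted with limma 3.58.1 in R 4.3.3 (lmFit, eBayes), two-sided, with Benjamini-Hochberg adjustment over 45037 probe sets. The fit was tested on simulated data.

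The members and lists were chosen with earlier results of these data known. Named genes are all members, the array values of Myc, Mycn, Max and the 10 members with the largest called difference, and up to 4 called genes per further list with the largest homozygous difference. The array values of Ncl, Npm1, Dkc1, Nop56, Ebna1bp2, Nip7, Noc2l and Srm, and the names Odc1 and Hspd1, were chosen after their values were seen. Replicate numbers were not taken to pair the arrays. Deviations from the group means correlated at -0.023 to 0.07 between same-numbered arrays and at -0.062 to 0.034 between the others. With 3 arrays a group this cannot decide if the numbers pair the arrays. Alternatives were a fit of the 2 genotypes in question, a replicate block, other filters, priors, weights, normalizations, scalings, probe set choices, adjustment and threshold, and leaving out each array. Figures were drawn with matplotlib 3.10.9.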

Additional observations from a re-analysis of the deposited data

Results flagged for a closer look

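The poly-A spike-ins, control probe sets that enter no gene comparison, differed between the genotypes. Their mean was higher by 1.58 on the log2 scale in homozygous and by 0.88 in heterozygous than in wild-type arrays, and single spike-in probe sets were higher by 0.91 to 2.14 in homozygous arrays. The hybridization spike-ins, added after labelling, averaged 10.60 ± 0.07 in homozygous, 10.32 ± 0.04 in heterozygous and 10.32 ± 0.01 in wild-type arrays (SD, n = 3 each). Groups of 3 arrays are too small for a check of single outlying arrays.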

How the results depend on the processing

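Of 3302 member values under alternatives, 3131 kept their side of the threshold, 115 lost a call and 54 gained one. Another 2 changed sign and were called in at least 1 of the settings compared. Values that changed sign without a call in either setting were counted among the 3131. Those 2 were Noc2l, at 0.52 in homozygous minus wild-type and 0.24 in homozygous minus heterozygous blood when all probe sets of a gene were averaged, where its second probe set enters. In homozygous against wild-type blood 14 of the 23 higher and 2 of the 5 lower members kept their call in every setting run. Reference gene scaling gave 15 higher members in that comparison, 7 higher and 3 lower in heterozygous against wild-type blood, and member medians of 0.16, 0.05 and 0.13 (homozygous against wild type, heterozygous against wild type, homozygous against heterozygous). It gave 39 lower genes of the further lists in the first comparison and 17 higher and 25 lower in the second. Its differences are shifted for all genes by -0.16, -0.12 and -0.03. Quantile normalization gave 3 lower members in homozygous against wild-type blood and medians of 0.39 against wild type and 0.22 against heterozygous blood. The fit of only 2 genotypes, which has fewer samples, gave 3 lower members in homozygous against wild-type blood. The stricter threshold of 0.01 gave 3 there, 8 higher and 0 lower in heterozygous against wild-type blood, 1 below the midpoint, and for the further lists 4 lower (heterozygous against wild type) and 17 higher and 5 lower (homozygous against heterozygous). Averaging all probe sets gave 0 lower members and a median of 0.15 in heterozygous against wild-type blood, a median of 0.13 in homozygous against heterozygous blood and 1 member below the midpoint. Equal array medians and leaving out _x_at and _s_at probe sets also gave 1 below the midpoint. Except where noted, the cause was not tested.

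With the replicate number as a block, 24 members were higher and 4 lower in homozygous against wild-type blood, 10 higher and 1 lower in heterozygous against wild-type blood, 12 higher and 3 lower in homozygous against heterozygous blood, and 2 above and 1 below the midpoint. No count other than the last moved by over 1.5 times, and by the labels a shared number is all that links these arrays.

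Leaving out each array in turn gave 21 to 23 higher and 3 to 4 lower members in homozygous against wild-type blood, with a median of 0.31 to 0.34. The lower count was 3 without homozygous replicate 3, heterozygous replicate 1 or wild-type replicate 2 or 3. In heterozygous against wild-type blood it gave 9 to 14 higher and 0 to 1 lower members and a median of 0.16 to 0.19, and in homozygous against heterozygous blood 11 to 13 higher, 3 to 4 lower and a median of 0.13 to 0.18. Around the midpoint it gave 0 to 2 above and 1 to 2 below. The further lists gave 40 to 44 higher and 17 to 22 lower, then 20 to 29 higher and 4 to 12 lower, then 20 to 27 higher and 6 to 16 lower genes in the same 3 comparisons (with all arrays 44 and 20, 27 and 10, and 30 and 15). Their lower counts moved most without any heterozygous or wild-type array in the second comparison, and without homozygous replicate 3 or heterozygous replicate 2 in the third.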
